A study of Mus musculus with 6 samples.

Results

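The tiles described here are 676 stretches of 500 bp in which the DNA of the right testis was less methylated in each of 3 hemicastrated mice than in any of 3 sham-operated mice. They were chosen by the measured levels themselves: chromosomes 1 to 19 were cut into fixed tiles from position 1, and a tile was eligible with at least 3 cytosine positions read at least 10 times in all 6 libraries. A member had its highest hemicastrated level below its lowest sham level and a sham mean at least 7 percentage points above the hemicastrated mean. Of 69245 eligible tiles 676 met the rule, which is 0.976%, and the mirrored rule, with every hemicastrated mouse above every sham mouse, was met by 290 (0.419%). All 6 animals were mature males of the outbred KM strain. The hemicastrated mice had lost the left testis before puberty, the controls had sham surgery and are labelled normal, and no age is given in the sources used here. Each mouse gave 1 reduced representation bisulfite library, made from short DNA fragments cut at CCGG by the enzyme MspI, in which unmethylated cytosines read as thymines. Because the contrast between the groups chose the members, their differences are given as a description with no test, and a value of theirs supports nothing about hemicastration.

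Methylation of the cytosine in CpG dinucleotides is set by DNA methyltransferases and copied at cell division, so that most CpGs of a cell are either methylated or not. Promoters rich in CpG are mostly kept free of it, while gene bodies and intergenic DNA are mostly methylated. In the adult testis most cells are germ cells, whose imprints and some promoters differ from those of the supporting Sertoli, Leydig and blood cells. Levels were measured on whole testis, so a different mixture of cells and a different methylation within the same cells cannot be told apart.

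Members over the annotated start of a gene are the ones whose DNA can be shown, since the RefSeq table of gene starts (GRCm38.p6) holds the bases before each start. An annotated start lay within 19 of the 656 members on chromosomes other than 18. Shown are the 250 bases before the start, read 5′ to 3′ along the gene, for the 4 regional tiles among the 8 start tiles with the largest differences that had a measured CpG there. Capitals mark CpGs read at least 10 times in every library. In order, they lie at chr12:52480610-52480859, chr6:115519502-115519751 and chr13:113046389-113046638 on the minus strand and at chr2:69669870-69670119 on the plus strand.
Gm35135: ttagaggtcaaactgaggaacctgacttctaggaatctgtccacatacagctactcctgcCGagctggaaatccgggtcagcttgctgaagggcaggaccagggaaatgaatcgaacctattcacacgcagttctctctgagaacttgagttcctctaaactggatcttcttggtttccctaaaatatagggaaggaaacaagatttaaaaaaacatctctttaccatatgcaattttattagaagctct
Gm36301: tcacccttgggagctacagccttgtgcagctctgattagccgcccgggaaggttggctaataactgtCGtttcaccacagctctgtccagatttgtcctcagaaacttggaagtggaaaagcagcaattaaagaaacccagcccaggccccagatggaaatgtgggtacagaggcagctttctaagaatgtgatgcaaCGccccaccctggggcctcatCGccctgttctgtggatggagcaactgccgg
Gpx8: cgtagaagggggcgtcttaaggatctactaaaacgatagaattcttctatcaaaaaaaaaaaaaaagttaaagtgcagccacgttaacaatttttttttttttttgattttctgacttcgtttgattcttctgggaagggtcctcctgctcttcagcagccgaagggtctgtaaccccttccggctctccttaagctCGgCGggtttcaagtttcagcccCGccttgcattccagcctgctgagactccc
Klhl41: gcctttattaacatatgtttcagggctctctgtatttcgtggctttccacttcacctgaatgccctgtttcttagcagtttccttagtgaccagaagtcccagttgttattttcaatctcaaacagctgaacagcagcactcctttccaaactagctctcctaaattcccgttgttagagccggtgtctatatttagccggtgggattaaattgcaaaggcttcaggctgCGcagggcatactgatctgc
These sequences held 4, 6, 10 and 5 CpGs, of which 1, 3, 3 and 1 were measured, against a median of 6 CpGs over the same stretch of 31396 start windows. The MspI site CCGG, the same on both strands, occurred 1, 2, 1 and 2 times in them and at least once in 47.8% of all the windows.

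The libraries held between 64504011 and 78630942 methylation calls, and 930333 positions passed the read minimum. In the start windows 99.99% of these positions fell on a CpG of the reference. Of the sham libraries, replicate 1 lay nearest to the hemicastrated ones. Over the 9554 eligible tiles with a mean level of 20% to 80%, the libraries of hemicastrated replicates 1 to 3 had mean levels of 52.8%, 54.6% and 52.3% and those of sham replicates 1 to 3 had 52.6%, 56.9% and 56.1%. The groups thus overlapped in this range, with sham replicate 1 among the hemicastrated libraries. Over all eligible tiles the means ran from 48.4% to 49.1% in hemicastrated and from 48.4% to 49.6% in sham-operated mice, and the median difference between the groups was 0.0171 points.

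Over the 676 members the mean level was 53.4%, 55.2% and 54.3% in hemicastrated replicates 1 to 3 and 64.6%, 67.9% and 67.7% in sham replicates 1 to 3. The sham minus hemicastrated difference had a median of 10.7 points and reached 49.2. It was 10 points or more in 398 members, 20 or more in 58 and 30 or more in 11. The gap between the highest hemicastrated and the lowest sham mouse was narrower, with a median of 2.60 points. It was under 1 point in 133 members and at least 5 points in 170. The sham mouse next to the hemicastrated group was replicate 1 in 343 members (50.7%), replicate 2 in 174 and replicate 3 in 159. Among hemicastrated mice, replicates 1, 2 and 3 stood next to the sham group in 208, 258 and 210 members. The spread within a group was similar on both sides, with a median SD of 4.21 points in the hemicastrated and 3.82 in the sham group.

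The number of members was compared with the same rule in the 9 other ways of setting 3 of the 6 mice against the other 3, each in both directions. These 18 counts ran from 200 to 1386, with a median of 406.5, and 3 of them were above 676. A rule over 5 mice has fewer conditions, and without sham replicate 1 it was met by 1937 tiles. The largest of the 18 counts was that of hemicastrated replicates 1 and 3 with sham replicate 1 below the other mice, at 1386. Next came hemicastrated replicates 2 and 3 with sham replicate 1 below the rest, at 851, and hemicastrated replicate 3 with sham replicates 1 and 3, at 695. With both directions added, the study's groups gave 966 tiles, and 3 of the 9 others gave more, the range being 723 to 1610. When each library was centred on the common mean of tiles at 20% or more, the study's groups gave 552 tiles lower and 395 higher in hemicastrated mice, where the uncentred counts were 676 and 290. Of the 676 members 514 (76%) met the rule after centring, among them 239 of the 246 regional ones described below. The other centred counts ran from 296 to 864, and again 3 were above that of the study's groups.

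**Figure D1:**
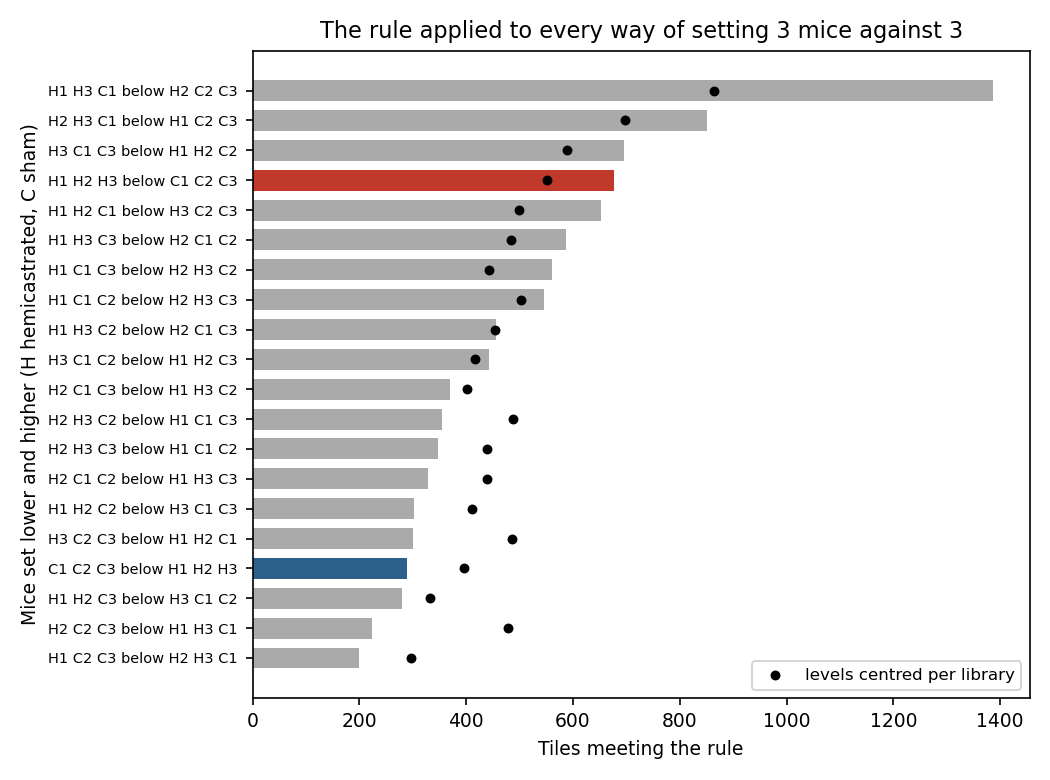
Number of tiles meeting the rule for each way of setting 3 mice below the other 3 (H hemicastrated, C sham, with replicate number); bars are counts from levels as measured and black points are counts after centring each library. The study's own direction (red) is 676 and its mirror (blue) 290, while the longest bar, H1, H3 and C1 below the rest, reaches 1386.

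Members were mostly tiles of intermediate methylation. Of the 676, 450 (66.6%) had a mean level between 20% and 80% over the 6 mice, a range that held 13.8% of eligible tiles. Members made up 5.80% of the 2259 eligible tiles between 40% and 60%, 4.59% of those between 60% and 80% and 4.01% of those between 20% and 40%. Their share was 0.165% at 90% or more and 0.0301% under 10%. The rule bears on this, because a difference of 7 points has no room near the ends of the scale and levels spread more in the middle. The median SD within a group was 6.32 points between 40% and 60% and 1.62 points at 90% or more. The share of mirrored tiles was 1.99% between 10% and 20%, 2.02% between 20% and 40%, 0.930% between 40% and 60% and 0.852% between 60% and 80%, and 39.7% of them lay in the intermediate range. The median group difference of all eligible tiles was also largest between 40% and 60%, at 1.79 points toward lower hemicastrated levels.

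**Figure D2:**
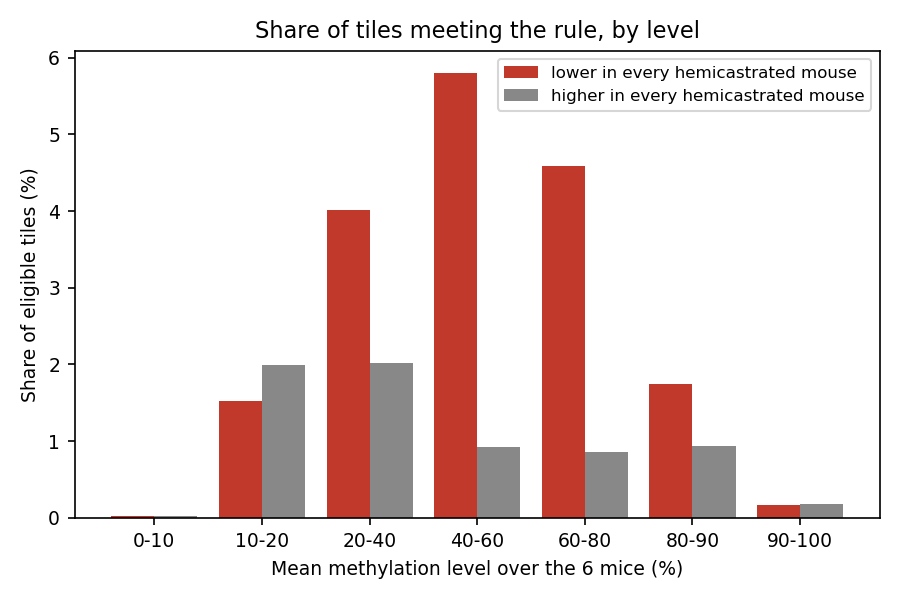
Share of eligible tiles (percent, vertical) that met the rule (red) or its mirror (grey), by the mean methylation level of the tile over the 6 mice (percent, horizontal). The red share peaks at 5.80% between 40% and 60%, where the grey share is 0.930%.

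The members were spread over all 19 autosomes, with 16 on chromosome 16 to 60 on chromosome 4, or 0.738% (chromosome 11) to 1.26% (chromosome 14) of the eligible tiles of a chromosome. Of the members 385 (57%) overlapped a gene, against 74% of all eligible tiles and 65.1% of the 43634 eligible tiles with a group mean of 7% or more. The latter is the nearer comparison, since a tile below it could not be a member. A gene start lay within 2.90% of members, within 12.5% of eligible tiles and within 1.49% of those at 7% or more. The median distance to the nearest start was 16100 bp for members and 21800 bp for the tiles at 7% or more. Members held a median of 5 measured positions on 4 CpGs with 41.0 reads per position, where eligible tiles had 7 positions, 5 CpGs and 53.9 reads. The tiles at 7% or more had 6 positions, 4 CpGs and 50.5 reads, and the mirrored tiles had 4 positions, 3 CpGs and 33.1 reads. Of the mirrored tiles 61.4% overlapped a gene and 2.82% held a gene start, and their median distance to a start was 22200 bp. Summed over its positions, a member had between 30 and 3805 calls in a library, with a median of 234. A read that covers several positions is counted at each of them, so these sums exceed the number of reads. Exons and introns cannot be told apart with the gene table used, which gives gene boundaries.

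Whether a member rested on a single CpG was read from its difference without each of its CpGs in turn, the positions of both strands being pooled. In 81 members (12%, Wilson 95% interval 9.75% to 14.6%, for counting error only) leaving out 1 CpG took the difference under 50% of its value. In 246 (36.4%), termed regional, the tile had 3 or more CpGs and still met the rule without any 1 of them. The other 349 (51.6%) lay in between. Members resting on 1 CpG had a median of 3 CpGs, and their median difference went from 10.1 to 2.28 points without the CpG that carried most. Regional members had a median of 5 CpGs and at most 22, and the same step took them from 12.9 to 11.4 points. All CpGs of the tile had a lower hemicastrated mean in 225 (91.5%) of the regional members and in 46 (56.8%) of those resting on 1 CpG. At least 3 CpGs had groups that did not overlap and differed by 7 points or more in 178 regional members and in none of the 81. The kinds were defined by leaving out CpGs, so these contrasts between them follow largely from the definitions. CpGs of 1 fragment are read on the same molecules, so several CpGs that differ together are not independent measurements.

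**Figure D3:**
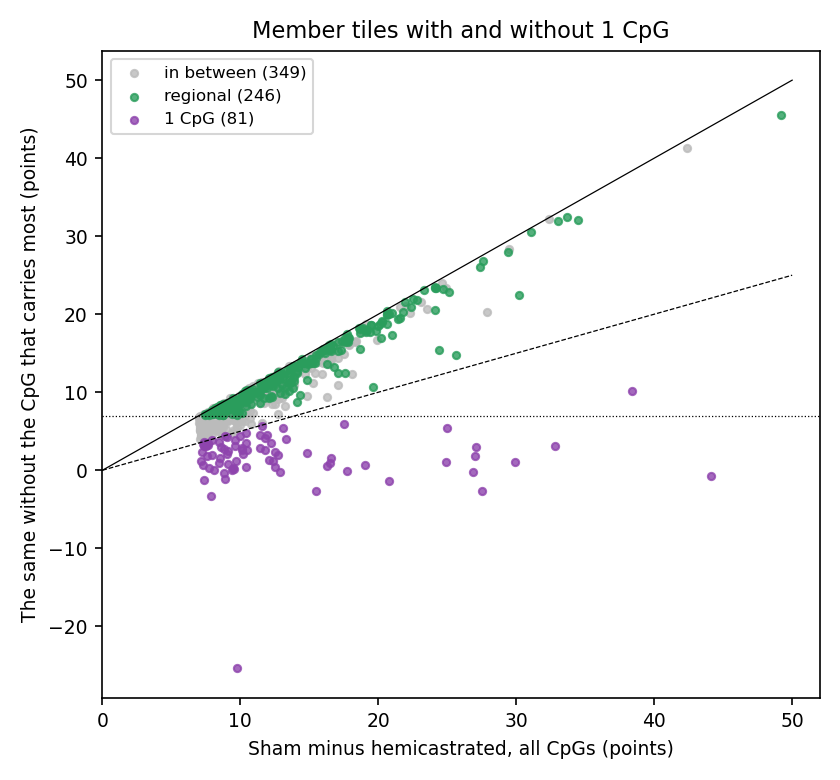
Sham minus hemicastrated difference of each member with all its CpGs (points, horizontal) and without the CpG whose removal lowers it most (points, vertical). Regional members (green, 246) lie near the line of equality, members resting on 1 CpG (purple, 81) lie under the dashed line at 50% of the value, and the dotted line marks 7 points.

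Reads can also shift between CpGs of different level within a tile. When each CpG had the same weight, a choice made after this was seen in the data, 230 of the 246 regional members were again regional, 15 fell in between and 1 rested on 1 CpG. That 1 was the tile inside Il9r, the interleukin 9 receptor gene, at chr11:32190501-32191000. The first CpG was at 0% to 2.63% and the second at 95.4% to 96.5% in the 6 mice, while the third was at 0.769%, 0.37% and 1.69% in hemicastrated and 46%, 48.6% and 48.8% in sham-operated mice. The tile difference of 25.6 points weighted by reads was 15.8 with equal weights. Of all members, 585 (86.5%) also met the rule with unweighted means of their positions.

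The member with the largest difference lay inside Tex21, a gene named for its expression in testis, at chr12:76216501-76217000. It had 18.9%, 11.1% and 26.5% in hemicastrated replicates 1 to 3 and 81.5%, 38.7% and 83.8% in sham replicates 1 to 3. Sham replicate 2 thus stood far below the other sham mice, though above every hemicastrated one. All 3 CpGs differed in the same way, the middle one with 16.7%, 0% and 15.9% against 83.9%, 29.8% and 88%. The means were 18.8% ± 7.70 and 68% ± 25.4 (SD, n = 3 each), a difference of 49.2 points over 74 to 171 summed calls per library.

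A pair of neighbouring members on chromosome 19 lay 5635 bp or more from Gpam, which encodes the mitochondrial acyltransferase of the first step of triglyceride synthesis. The tile chr19:55061001-55061500 had 17.3%, 10.6% and 8.16% in hemicastrated and 43%, 56% and 40.5% in sham-operated mice over 3 CpGs. The next one, chr19:55061501-55062000, had 41.2%, 2.65% and 9.79% against 50.9%, 53.5% and 50.3% over 9 CpGs. In the second tile hemicastrated replicate 1 was near the sham mice and the other hemicastrated mice were near 0%. At 3 of its 9 CpGs that mouse lay within the sham range or above it, for example at 57.6% against 42.9% to 54% at position 55061504. The differences were 34.5 and 33.7 points.

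Among the other regional members with large differences, that inside Acyp2, which encodes an acylphosphatase, had 35.8%, 23.3% and 37.5% in hemicastrated and 68.1%, 66.7% and 61% in sham-operated mice (chr11:30572501-30573000, 6 CpGs, 33.0 points). A tile 19096 bp from the non-coding gene D130051D11Rik had 5.06%, 7.14% and 10.9% against 28.6%, 44.9% and 42.9% (chr15:85615001-85615500, 7 CpGs, 31.1 points). Inside Abca7, a lipid transporter gene, the levels were 41.3%, 38.2% and 26.9% against 70.4%, 77% and 47.2% (chr10:80013501-80014000, 12 CpGs, 29.4 points). In the last tile sham replicate 3 stood apart from its group, 5.94 points above the highest hemicastrated mouse. Each of these 3 tiles had a lower hemicastrated mean at all its CpGs.

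Inside Hoxa3, a homeobox gene of embryonic patterning, the tile chr6:52185001-52185500 had 13.5%, 17.9% and 19.1% in hemicastrated and 28.8%, 52.6% and 51.8% in sham-operated mice. Its 4 CpGs gave nearly the same values, with differences of 25.5 to 29.7 points. Sham replicate 1 lay nearer to the hemicastrated mice than to the other sham mice, 9.71 points above the highest of them. The tile inside Sec16b, a gene of protein export from the endoplasmic reticulum, had 53.5%, 60% and 47% against 75.9%, 83.7% and 83.1% (chr1:157510501-157511000, 27.4 points). That inside Crb1, a gene of cell polarity in the retina, had 26.7%, 20% and 25.5% against 50%, 50.7% and 45.5% (chr1:139320501-139321000, 24.7 points). It rested on as few as 30 summed calls in a library, or 10 reads per CpG. A tile 39962 bp from the pseudogene Gm51262 had 33.8%, 62.5% and 54.3% against 72.7%, 76.4% and 76.9% (chr14:109037501-109038000, 25.1 points), hemicastrated replicate 1 being the low one.

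The intergenic tile chr6:51788001-51788500, 70665 bp from Skap2, shows what the term regional covers when a tile has 3 CpGs. A pair of them, at positions 51788294 and 51788387, had hemicastrated levels of 40% to 60.4% and sham levels of 92.9% to 99.3%. The CpG between them, at 51788325, was at 94.2% to 98.5% in all 6 mice. The tile levels were 71.2%, 65% and 60.5% against 95.3%, 97.2% and 94.9%, with a difference of 30.2 points.

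**Figure D4:**
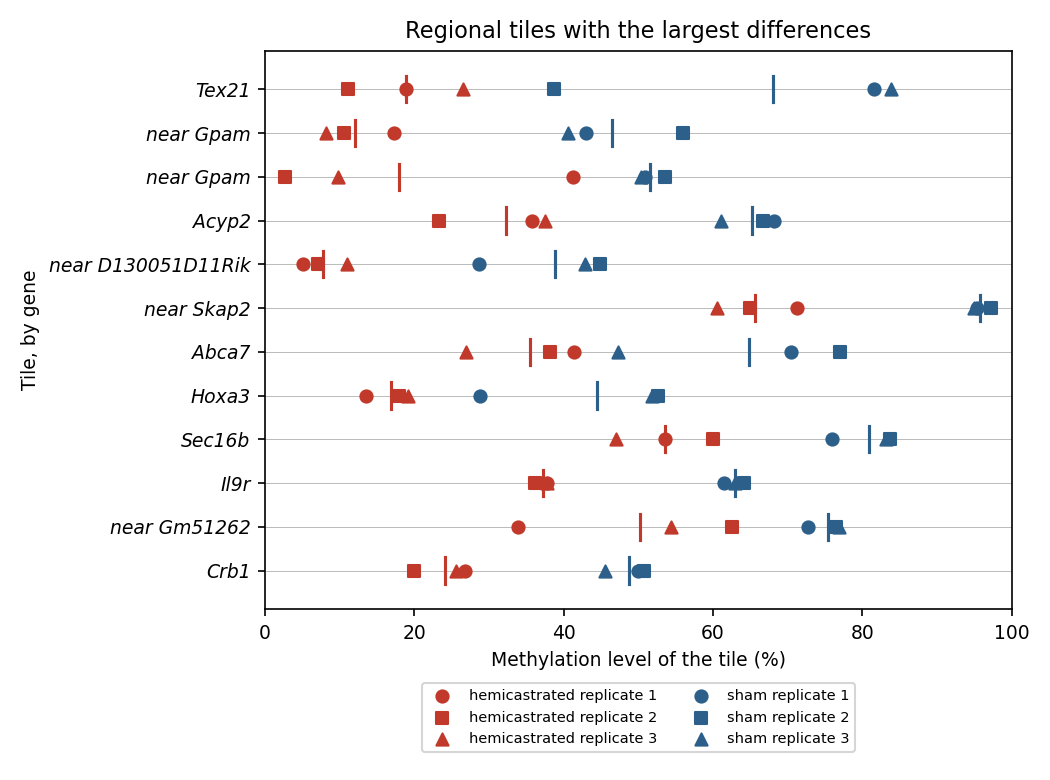
Methylation level (percent, horizontal) of each mouse in the 12 regional tiles with the largest differences, named by the gene they lie in or near; red marks are hemicastrated and blue marks sham-operated mice, the shape gives the replicate, and short lines are group means. The widest separation is at Tex21 (18.8% against 68%), where sham replicate 2 lies at 38.7%.

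In members resting on 1 CpG, that CpG often moved in large steps from mouse to mouse. Its levels spanned 40 points or more over the 6 mice in 60 of the 81 tiles (74.1%). For the strongest CpG of regional members this held in 45 of 246 (18.3%). The contrast follows in part from the definition, under which 1 CpG carries most of the difference. In 29 of the 81 every mouse was within 10 points of 0%, 50% or 100%, and in 17 at least 1 mouse was under 10% and another over 90%. In none were all hemicastrated mice under 10% and all sham mice over 90%. Levels near the ends of the scale are common, with a mean under 10% in 26592 and of 90% or more in 22358 eligible tiles. The same shares over all measured CpGs are not given here, so nothing is read from these counts. At the CpG that carried most, the groups did not overlap in 55 of the 81 tiles. In the others at least 1 hemicastrated mouse reached the level of a sham mouse there. In 24 of the 81 no CpG of the tile had groups that were apart and differed by 7 points or more. The carrying CpG was measured on both strands in 51 of the 81. Both strands had lower hemicastrated means in all 51, with a median difference between strands of 5 points. The CpG was picked by the pooled counts of both strands in chosen tiles, so this is not a separate check. A cytosine replaced by thymine in the DNA of an outbred mouse would read as unmethylated, and the part of such sequence differences was not tested.

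By the difference of the whole tile, 44.1 points, the first of these was inside Dgkz, a diacylglycerol kinase gene, at chr2:91939001-91939500. Position 91939307 had 0.532%, 0% and 45.1% in hemicastrated and 51.3%, 95.1% and 94.8% in sham-operated mice, while the other CpG of the tile had 96.6% to 98.1% in all 6. Inside Eif4g3, which encodes a scaffold of translation initiation, position 138115509 of chromosome 4 had 1.52%, 0% and 50.5% against 93.2%, 97.4% and 61.4%. Its partner 2 bp away differed less, by 10.1 points. Near Batf3, a transcription factor gene of dendritic cells, position 191092340 of chromosome 1 had 0%, 44.4% and 47.9% against 94.5%, 88.6% and 96%.

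In 2 of the other tiles the mice of each group lay closer together. Inside Trim26, of the TRIM family of ubiquitin ligases, position 36858006 of chromosome 17 had 46.3%, 54.5% and 61.3% in hemicastrated and 95.4%, 97.3% and 96.3% in sham-operated mice. In an intergenic tile of chromosome 9, position 115622046 had 55.3%, 51.4% and 53.6% against 93.6%, 96.8% and 92.1%. The second CpG of either tile was under 10% in all 6 mice. Inside Gramd4, position 86081946 of chromosome 15 had 0.985%, 0% and 0% against 57.7%, 95.9% and 0.704%. Sham replicate 3 thus equalled the hemicastrated mice at that CpG, and the gap between the groups in the whole tile was 0.37 points. Without sham replicate 2 the difference of the Gramd4 tile went from 27.1 to 15.9 points.

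Tiles beside a member were examined where they too were eligible. Around regional members 66 such direct neighbours were found, and their median difference was 8.96 points, with 61 (92.4%) lower in hemicastrated mice. Of these 66, 25 were themselves members, and the 41 that met neither rule had a median of 4.81 points with 36 (87.8%) lower. At 1000 bp the median was 0.614 points and at 1500 bp -0.0382. Around the members resting on 1 CpG the 17 direct neighbours had a median of 1.48 points and none was a member. Around members of every kind the 168 direct neighbours had a median of 5.61 points, with 139 (82.7%) lower in hemicastrated mice. The 126 of them that met neither rule had a median of 3.10 points, with 97 (77%) lower. Around the 290 mirrored tiles, which were not split by kind, the 44 direct neighbours had a median of -0.283, with 20 (45.5%) lower in hemicastrated mice. Next to all eligible tiles at 7% or more, the median was 0.310 and 57.9% were lower. A CpG next to a tile border can share reads with the next tile, so neighbours are not independent of the member. Positions inside members that did not reach the read minimum in every library were also examined. Summed to at least 10 calls in each library, they were available in 233 members. They were lower in hemicastrated mice in 162 (69.5%), with a median of 4.94 points. By kind the shares were 66% of 97 regional members, 72.3% of 112 in between and 70.8% of 24 resting on 1 CpG. These positions lie in the chosen tiles and can share molecules with the measured ones, so they are not a separate check. A share over all eligible tiles is not given here.

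**Figure D5:**
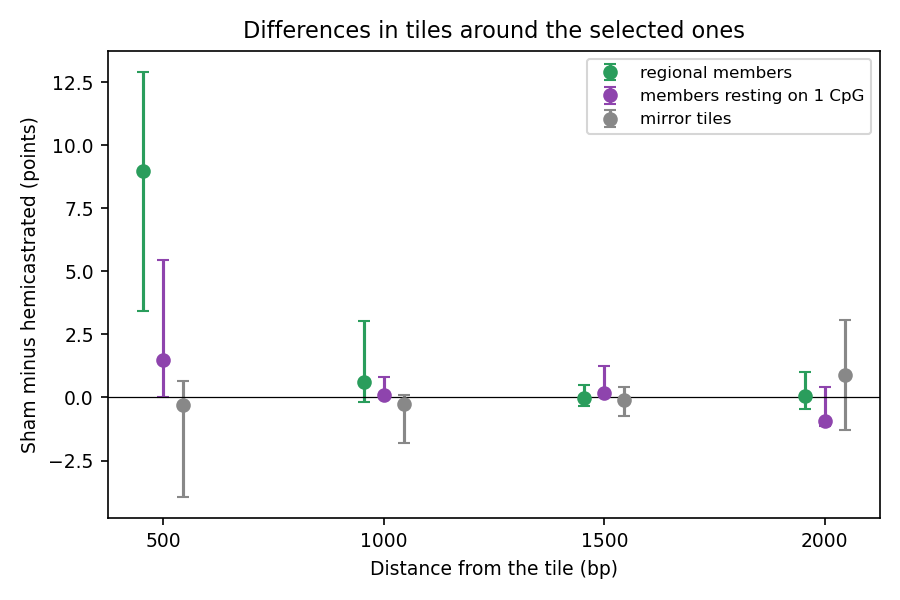
Median sham minus hemicastrated difference (points, vertical, with the quartiles as bars) in eligible tiles at a given distance (bp, horizontal) from regional members (green), members resting on 1 CpG (purple) and mirrored tiles (grey). The direct neighbours of regional members have a median of 8.96 points, and at 1500 bp it is -0.0382. Of these 66 direct neighbours 25 are themselves members, which the rule chose by this difference. The 41 that meet neither rule have a median of 4.81 points. The mirrored tiles are not split by kind, and direct neighbours of members of every kind have a median of 5.61 points.

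There were 21 pairs of directly neighbouring members, holding 42 tiles, and 29 of the 353 genes with a member had 2 or more. Apc2, a relative of the tumour suppressor Apc that acts in neurons, had 4 members in 2 pairs between 80311501 and 80314000 of chromosome 10. The first pair together had 29.6%, 31.6% and 26.1% in hemicastrated and 36.7%, 58.1% and 48.1% in sham-operated mice over 32 positions. The second pair had 59.5%, 55.2% and 47.2% against 65.8%, 75.9% and 72% over 36 positions. In both pairs sham replicate 1 was the sham mouse nearest to the hemicastrated ones, and without hemicastrated replicate 3 the difference of the last tile went from 13.6 to 8.45 points.

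At Trim47, of the same TRIM family, the pair chr11:116106001-116107000 had 38.7%, 39.9% and 34.6% in hemicastrated and 42.1%, 66.1% and 59% in sham-operated mice over 40 positions. Sham replicate 1 was close to the hemicastrated mice there, and the gaps in the 2 tiles were 2.24 and 0.23 points. The pair at Zbtb46 and Abhd16b, chr2:181493001-181494000, had 61.1%, 63% and 61.8% against 81.9%, 77.8% and 90.5% over 26 positions, and at Slc25a51, the mitochondrial NAD carrier gene, the pair chr4:45399501-45400500 had 73.2%, 68% and 66% against 85.4%, 84.4% and 87% over 58 positions. In these 2 pairs, each taken as a whole, every sham mouse stood well above the highest hemicastrated one. The tile chr2:181493001-181493500, with 4 of the 26 positions, had a gap of 4.46 points and a difference of 10 points. A pair 1392 bp or more from the non-coding gene 1700016C19Rik had 31.1%, 50% and 46.5% against 62.8%, 56.4% and 61.3% (chr5:113347501-113348500). Hemicastrated replicate 1 was lowest in it, and without that mouse the difference of its second tile went from 14.5 to 8.23 points.

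Among members over a gene start, the tile of Tekt4 had the most measured CpGs of the regional ones. Tektin 4 is a filament protein of the microtubules in sperm tails. The tile chr17:25471501-25472000 had 14.7%, 13.9% and 11.1% in hemicastrated and 27.8%, 31.2% and 32.9% in sham-operated mice, so that the groups were 13.2 points apart at their nearest mice. Its 10 CpGs lay 199 to 335 bp downstream of the start at position 25471590, and each had a lower hemicastrated mean, with differences of 13.2 to 24.4 points. The means were 13.2% ± 1.86 and 30.6% ± 2.56 (SD, n = 3 each), over 341 to 586 summed calls per library.

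Of the starts whose sequence is shown above, that of the non-coding gene Gm35135 had 17.9%, 6.15% and 13.9% in hemicastrated and 29.8%, 35% and 33.1% in sham-operated mice, over 7 CpGs from 189 to 309 bp upstream. The CpG in capitals in its sequence, 189 bp upstream, was at 10.2% ± 6.14 against 26.8% ± 5.13 (SD, n = 3 each). At Gm36301 the levels were 58.3%, 64.2% and 61.1% against 79.3%, 74.6% and 70.8%, and the 3 capital CpGs, 182, 51 and 30 bp upstream, differed by 18.6, 4.94 and 17.6 points. At Gpx8, a glutathione peroxidase gene of the endoplasmic reticulum that overlaps Cdc20b here, the tile had 4.49%, 6.21% and 8.54% against 10.7%, 29.5% and 17.1%. The 3 capital CpGs, 52, 49 and 29 bp upstream, differed by 12.3, 13.4 and 13.4 points. Without sham replicate 2 the difference of that tile went from 12.7 to 7.51 points. At Klhl41, a gene of muscle sarcomeres, the tile had 42.5%, 40.3% and 31.4% against 45.5%, 49.6% and 54.8%. Its capital CpG, 20 bp upstream, was at 42.4% ± 5.49 against 50.9% ± 4 (SD, n = 3 each). The groups overlapped at that CpG, with 48.6% in hemicastrated replicate 1 and 48.5% in sham replicate 1.

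The other starts among the 8 were less even. At Galnt6, an enzyme that starts O-linked glycosylation, the tile chr15:100720001-100720500 had 28.4%, 19.1% and 25.1% in hemicastrated and 28.5%, 30% and 61.7% in sham-operated mice. That difference of 15.8 points was 4.99 without sham replicate 3. At Ccrl2, a receptor of the chemerin protein, the levels were 8.79%, 11.3% and 9.96% against 11.4%, 32.6% and 22.8% (chr9:111057001-111057500), and the difference of 12.2 points was 7.09 without sham replicate 2. The tile of 4932438H23Rik had 22.3%, 26.8% and 27.9% against 29%, 45.2% and 39.2% (chr16:91069001-91069500). The gaps between the groups in these 3 tiles were 0.00533, 0.0811 and 1.09 points.

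Tiles inside the listed genes of testis cells or within 5000 bp of them held 0 to 2 members per list. With 0.976% of all eligible tiles being members, lists of this size hold about 1 or none, and nothing is read from these counts. Of 65 eligible tiles at spermiogenesis genes 2 were members. One lay 3115 bp from Catsper1, a pore subunit of the sperm calcium channel, with 55.7%, 69% and 72.4% in hemicastrated and 75.1%, 77.5% and 83.8% in sham-operated mice (13.1 points, and 8.07 without hemicastrated replicate 1). The other was in Spaca1, a membrane protein gene of the acrosome, with 87.1%, 74.5% and 76.8% against 89.7%, 89.6% and 93.1%, and rested on 1 CpG. Of 42 tiles at spermatogonial genes 1 was a member, in Zbtb16, a regulator of spermatogonial stem cells (54%, 52.9% and 53.4% against 61.1%, 64.3% and 60%). Of 132 tiles at growth and hormone genes 1 was a member, in Tgfb2, a growth factor gene (51.1%, 44.8% and 40.6% against 54.2%, 54.2% and 59.7%). Of 7 tiles at macrophage genes 1 was a member, in Adgre1, the gene of the macrophage marker F4/80 (70.6%, 69.1% and 69.6% against 79.3%, 76.7% and 79%). With unweighted means of positions the tiles in Adgre1 and Zbtb16 differed by 6.76 and 6.66 points and no longer met the rule. None was a member among 54 tiles at Sertoli cell genes, 26 at meiosis genes, 10 at Leydig cell genes, 23 at germline genes methylated in somatic cells, 34 at maternally methylated imprinted genes and 6 at paternally methylated ones. Outside these lists, members also included a pair at the imprinted gene Meg3, whose start lay in the first tile of the pair. Together its tiles had 8.63%, 12.1% and 7.04% against 24.4%, 18.6% and 15%.

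Windows of 1000 bp either side of gene starts were described beside the members, because the testis is a mixture of cells. Whether their levels follow that mixture was not tested. Over 9 maternally methylated imprinted genes, whose imprint is absent in male germ cells and present on 1 allele in other cells, the mean level ran from 6.37% to 9.91% in hemicastrated and from 7.45% to 9.36% in sham-operated mice. Over 9 germline genes methylated in somatic cells it ran from 15.5% to 21.1% and from 14.9% to 18%. The group ranges overlapped in both, and their part in the members' differences was not tested. No macrophage gene had a window. Ranges also overlapped over windows of 2 Leydig cell, 7 spermatogonial, 8 meiosis, 10 growth and hormone and 2 paternally methylated genes. The last 2 windows, at starts and not at the imprinted control regions, stood at 2.26% to 4.70%. The 3 Sertoli cell windows had 1.77% to 2.36% in hemicastrated and 1.22% to 1.68% in sham-operated mice, and the 10 spermiogenesis windows 20.9% to 21.9% and 19.7% to 20.3%, so that these ranges were apart with the hemicastrated mice higher, and no test was made.

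At the edge of the rule, the last members were a tile inside Kif1c, whose group means were 77.4% (hemicastrated) and 84.4% (sham) (7.023 points), and one inside Gm51553, with 12.2% and 19.2% (7.004 points). Just outside stood a tile 10480 bp from Ythdc1, with 85.2% and 92.2%, and one 66 bp from Gm10863, with 82.9% and 89.9%, at 6.998 and 6.996 points. Groups did not overlap in 3409 eligible tiles (4.92%) with lower and in 3190 (4.61%) with higher hemicastrated levels. The difference of means reached 7 points in 2196 and 911 tiles.

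A test across all tiles was fitted for the background alone. edgeR's quasi-likelihood test with Benjamini-Hochberg adjustment called 0 of 69164 tiles (0%) at 0.05, members included, and the smallest adjusted p was 0.106. An unadjusted p below 0.05 was found for 2968 tiles (4.29%), and limma also called 0. Where mice of a group differ widely, the test can miss real differences with 3 mice against 3, so these counts of 0 do not show that there were none. Read depth, which the rule used only as a minimum, was compared in its own right. Relative to all eligible tiles, the log2 of the mean reads per position in members stood at -0.313 ± 0.0455 for the hemicastrated group and at -0.277 ± 0.0578 for the sham group (SD, n = 3 each). Their difference, -0.0362, was smaller than the spread between mice (p = 0.5 in a two-sided exact permutation test, which cannot go below 0.1).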

How the data were processed

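Per the labels' protocols, MspI fragments were selected by size, bisulfite-converted, amplified and sequenced, with 1 library per mouse. Per the submitters' processing notes, Bismark, TopHat2 2.0.11 and the build GRCm38 were used. For the role of each, trimming and removal of duplicate reads, the sources used here give nothing. The authors deposited raw methylated and unmethylated counts per position, and the deposited percent equals the methylated share of both counts. PCR copies are not independent molecules, so intervals cover counting error only.

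A tile's level is its summed methylated count over the sum of its methylated and unmethylated counts. Neighbouring positions were pooled as 1 CpG. Genes and starts came from RefSeq tables of the same build; chromosome 18 starts were not used here. Tiles methylated in no or every read were left out of edgeR 4.0.16 (R 4.3.3; libraries as columns, methylation by group as the tested term; limma 3.58.1 as alternative), which was tested on simulated data. Other values came from Python 3.11.15 with numpy 2.4.6 and scipy 1.17.1. The members and lists were chosen with earlier results of these data known. Named were the 12 regional and 6 single-CpG members with the largest differences, 6 runs, 8 start tiles, members at listed genes and the tiles at the threshold; the pairs at Slc25a51 and Meg3 were chosen after their values were seen.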

Additional observations from a re-analysis of the deposited data

How the results depend on the processing

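The count of 676 members followed the settings that define it. It was 436 with at least 20 reads per position, 370 with at least 5 positions per tile, 1040 at a difference of 5 points and 398 at 10 points. With 5 mice the rule has fewer conditions by construction, and the lowest count was 1009 (without sham replicate 2) and the highest 1937 (without sham replicate 1). It stayed within 1.5 times of 676 with at least 5 reads, tiles shifted by 250 bp, tiles of 1000 bp, unweighted means and centred libraries (552 to 924). Of the 433 members still eligible at 20 reads, 395 met the rule. The share resting on 1 CpG was 8.28% with a stricter limit on the remaining difference (1 in 3 parts), 18% with a looser one (2 in 3 parts), 15.9% at 20 reads and 11.4% to 14.1% without 1 mouse. Leaving out 1 mouse could not change the sign of a member's difference, since the rule set all hemicastrated levels below all sham levels. Only unweighted means and the minimum of 20 reads could have done so. Over 43 named tiles, none of 333 differences under the alternatives changed sign. Unweighted means moved 4 of them by more than the spread between mice: Il9r to 18.9 points, Trim26 to 25, Adgre1 to 6.76 and Zbtb16 to 6.66, the last 2 falling below the rule. edgeR called 0 tiles in every alternative, with a smallest adjusted p from 0.0549 (robust prior) to 0.431 (replicate block). limma's was 0.557, and the block changed no call. Same-numbered mice deviated together with correlations of 0.0696, 0.0501 and 0.0487, each small but the highest for its number. These values cannot settle whether the numbers mark pairs, and the main fit did not take them as pairs. The depth difference stayed negative, from -0.061 to -0.00447 without 1 mouse, none of them with p under 0.4.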
